A study of Mus musculus with 24 samples.

Results

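Sox2, Sox4, Sox9, Sox11 and Sox21 are 5 genes of the Sox family, the transcription factors that share the high mobility group box of the Sry gene. They were chosen by symbol, with every probe annotated to them, which gave 13 of the 45281 probes on an Illumina mouse bead array and 5 of 19057 named genes. RNA was measured in 8 groups of 3 arrays each. The study followed neurogenesis in the olfactory epithelium of mice aged 8 to 12 weeks, with 2 to 7 mice pooled per array. All mucosal cells were sorted alive, as cells without propidium iodide.

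Sus cells came from heterozygous offspring of ∆Sox2-GFP and FVB/NJ mice and were gated for high GFP without CD54, and their markers, below, are those of sustentacular cells, the glia-like support cells of olfactory neurons. Sox2GBC cells, named for globose basal cells, came from the same cross and were gated for low GFP, without E-cadherin and CD54 and with low scatter. OMP-OBX and OMP cells were GFP-positive, low-scatter cells of heterozygous ∆OMP-GFP offspring crossed to CD-1. Neurog1-OBX and Neurog1-Ctrl cells were sorted by the same gate from heterozygous Neurog1-GFP offspring crossed to FVB/NJ. In both OBX groups the cells were taken 3 weeks after removal of 1 olfactory bulb, from the side of the removal. OM was the whole live mucosa of wild-type F1 mice (129S1/SvImJ x C57BL/6J), the tissue control. The mREF arrays held a commercial RNA pooled from 11 mouse cell lines, in technical repeats. Mouse line and cell type cannot be told apart in most comparisons, since only Sus with Sox2GBC and the 2 lesion pairs share a line. The p-values measure the spread between arrays within groups, taken as 1 value per gene over all groups in the fit. They do not measure the spread of the compared groups alone.

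Sox factors bind a short DNA sequence in the minor groove and bend it, and they act with partner factors that differ between cell types. Sox2, of group B, maintains neural stem and progenitor cells and is also made by sustentacular cells of the olfactory epithelium. Sox21, also of group B, acts as a repressor and is known to oppose Sox2 during neuronal differentiation in the chick. Sox4 and Sox11, of group C, are activators that switch on neuronal genes in young neurons after the proneural factors have acted. Sox9, of group E, is known from cartilage, glia and the stem cells of many epithelia, and in the olfactory mucosa it marks Bowman's glands and ducts. In the adult epithelium globose basal cells divide and give rise to Neurog1-positive precursors, immature neurons and at last neurons with olfactory marker protein, the product of Omp, and removal of the bulb kills mature neurons and sets this sequence going anew.

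In the RefSeq annotation of build GRCm38.p6 the genes lie on 5 chromosomes. Sox2 is at chr3:34649995-34652461, Sox4 at chr13:28948919-28953699, Sox9 at chr11:112782210-112787757, Sox11 at chr12:27334268-27342718 and Sox21 at chr14:118233233-118237030. The promoters of the group B genes, Sox2 and Sox21, and of the group C genes, Sox4 and Sox11, are shown to compare genes of 1 group, over the 150 bases before the annotated start, on the gene's own strand. Capitals mark the CCAAT box in either orientation, CCAAT or its complement ATTGG.
Sox2, chr3:34649845-34649994, plus strand: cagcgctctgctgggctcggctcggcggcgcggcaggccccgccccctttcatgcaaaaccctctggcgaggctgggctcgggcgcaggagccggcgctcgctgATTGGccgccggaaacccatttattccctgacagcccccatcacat
Sox21, chr14:118237031-118237180, minus strand: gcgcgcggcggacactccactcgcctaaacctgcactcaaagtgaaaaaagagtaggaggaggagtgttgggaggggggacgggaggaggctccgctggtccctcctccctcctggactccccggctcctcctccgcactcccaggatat
Sox4, chr13:28953700-28953849, minus strand: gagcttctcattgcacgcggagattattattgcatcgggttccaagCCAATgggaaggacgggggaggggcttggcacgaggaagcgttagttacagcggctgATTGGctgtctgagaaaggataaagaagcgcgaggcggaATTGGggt
Sox11, chr12:27342719-27342868, minus strand: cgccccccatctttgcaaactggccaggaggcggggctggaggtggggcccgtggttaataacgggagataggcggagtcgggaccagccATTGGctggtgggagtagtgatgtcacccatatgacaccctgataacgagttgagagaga

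The box was found 46 bases before the start of Sox2, 60 bases before that of Sox11, and 104, 47 and 8 bases before that of Sox4. The Sox21 window held no such letters. Of the 32851 promoter windows in the same table, 24.5% held CCAAT on either strand. The TATA box letters TATAAA were in 7.57% of windows, and the Sox motifs ACAAAG and ACAAT in 9.88% and 17.4%, and none of these was in the 4 windows shown. Sox9 had no promoter in the table. GC content was 69.3% for Sox2, 64% for Sox21, 54.7% for Sox4 and 59.3% for Sox11.

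Mean signal ran from 215 to 722 intensity units per array and the share of probes detected from 33.9% to 48.3%, with 3 arrays a group. The spread of the negative control beads, read from the detection p-values, split the arrays into 4 noise classes, which no label names. The 3 OMP-OBX arrays share 1 class and the 3 Neurog1-Ctrl arrays another, while the other groups span 2 or 3. All 7 measured sustentacular genes were higher in Sus than in Sox2GBC, where 52% of all genes were called in either direction. The 6 measured globose basal genes did not set Sox2GBC above Neurog1-Ctrl (1 higher and 1 lower in Neurog1-Ctrl, 4 not called), where 17% of all genes were called. Neurog1 was detected on all 6 arrays of the Neurog1-GFP sorts and on none of the other 15 mucosal arrays. Omp was bright in every sort, with group means between 13.95 and 15.46 on the log2 scale, the lowest in Sus.

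Values below are log2 intensities after background correction and quantile normalization, of the brightest probe of each gene unless another is named, and differences are in log2 units with their standard errors. A gene was called when limma's Benjamini-Hochberg adjusted p over all 11870 genes tested was under 0.05. An array detects a probe when its detection p is under 0.01.

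**Figure D1:**
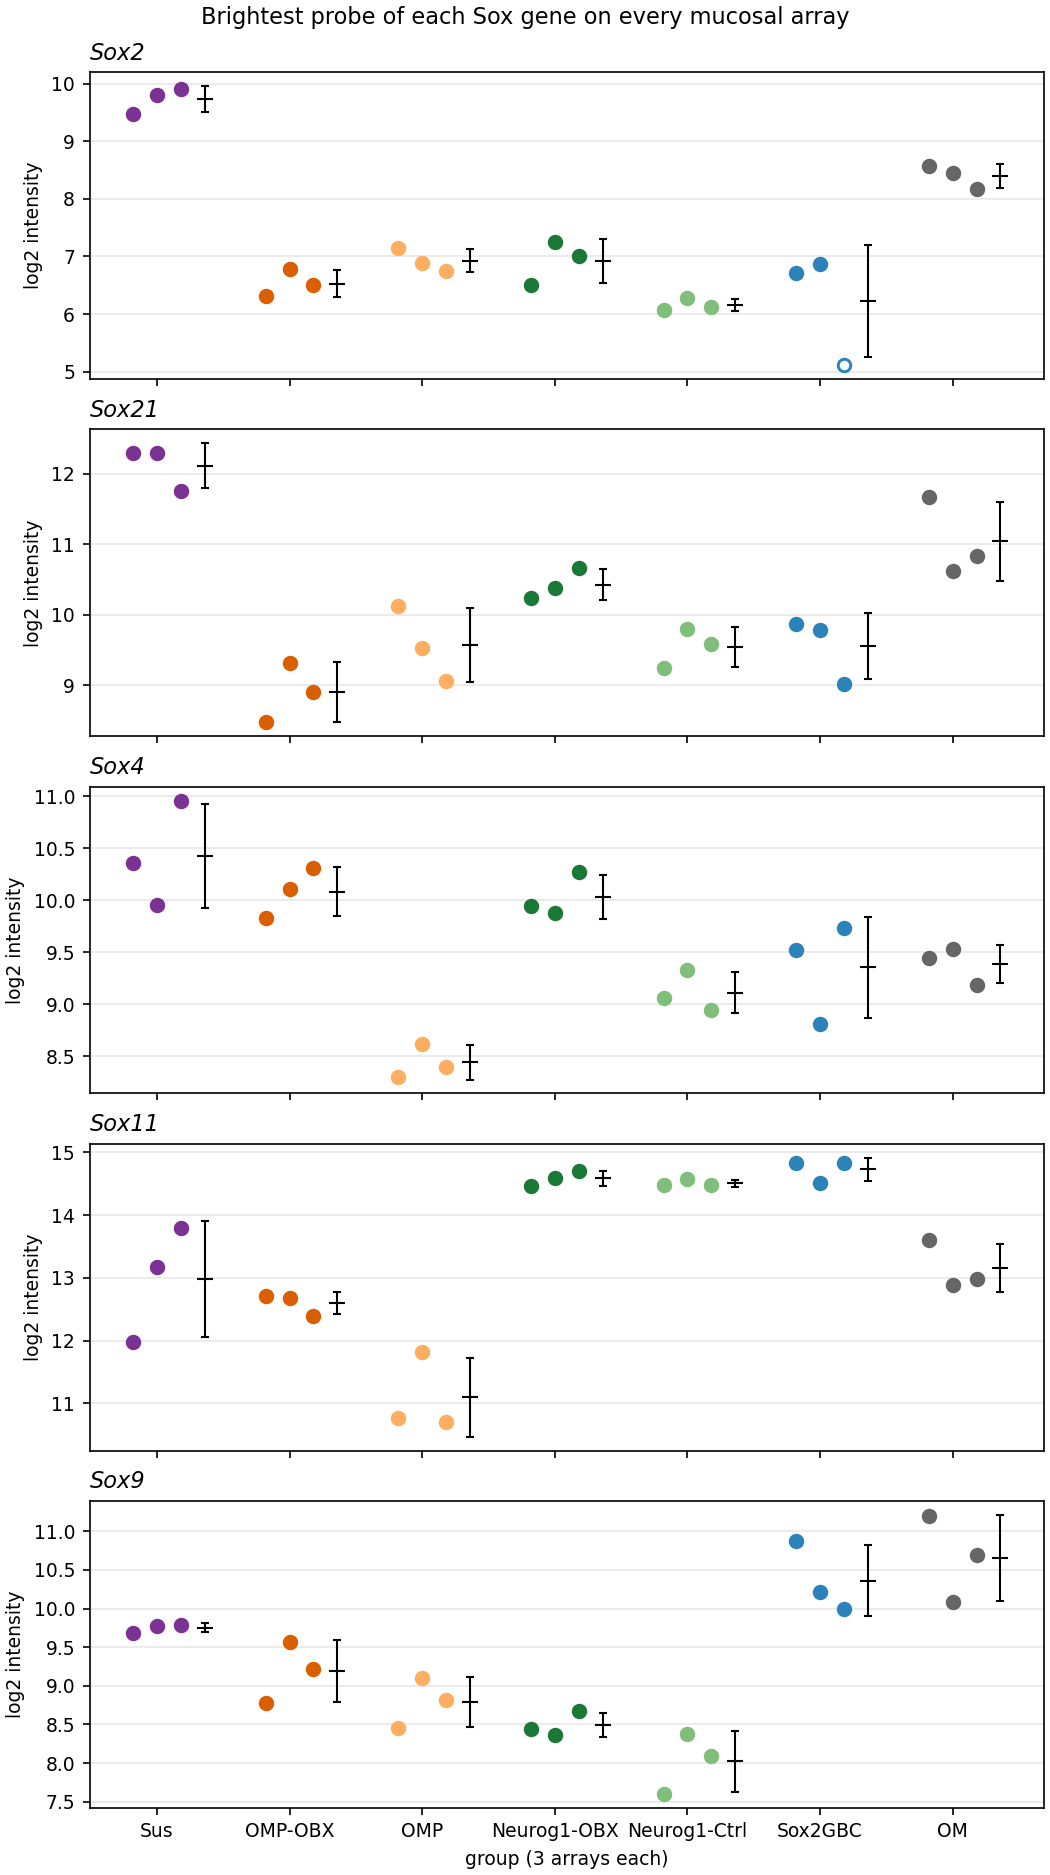
Log2 intensity of the brightest probe of each Sox gene on the 21 mucosal arrays (vertical axis, 1 panel per gene) by group (horizontal axis); points are arrays, open points are arrays on which the probe was not detected, and bars are the mean and SD of 3 arrays. Sox21 stood highest in Sus, and so did Sox2, by the gate of Sus for high GFP of the Sox2 line. Sox11 stood highest in Sox2GBC and both Neurog1 groups, Sox9 in OM and Sox2GBC, and Sox4 lowest in OMP.

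Sox21, of group B, was highest in the Sus sort. Sox2, the other group B gene, was highest there too, but Sus was gated for high GFP of the Sox2 line. Sox21 read 12.30, 12.30 and 11.76 in Sus, against 9.87, 9.79 and 9.02 in Sox2GBC of the same mouse line. It read 9.24, 9.80 and 9.59 in Neurog1-Ctrl and 10.12, 9.52 and 9.06 in OMP. Each Sus array lay above every array of these 3 sorts. Sox21 was 2.56 ± 0.32 higher in Sus than in Sox2GBC, a fold of 5.89 (adjusted p = 2.03e-06). It was 2.58 ± 0.32 higher than in Neurog1-Ctrl (adjusted p = 9.67e-07) and 2.55 ± 0.32 higher than in OMP (adjusted p = 1.01e-06). Among Sox2GBC, Neurog1-Ctrl and OMP its means lay between 9.54 and 9.57 and their arrays overlapped. The differences were -0.02 ± 0.32 for Neurog1-Ctrl against Sox2GBC and 0.03 ± 0.32 for OMP against Neurog1-Ctrl, neither called. In the noise classes that hold both sorts, Sox21 was 3.28 and 1.93 higher in Sus than in Sox2GBC. Each class holds 1 Sus array, against 1 and 2 Sox2GBC arrays, and the 3.28 is read from Sox2GBC replicate 3, the lowest in Sox21. The second Sox21 probe gave 2.21 ± 0.27 between Sus and Sox2GBC (adjusted p = 1.74e-06 over the probes tested). In sorted cells a change in how many cells of a type are present and a change in RNA per cell cannot be told apart.

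Sox2 read 9.48, 9.81 and 9.91 in Sus and 6.72, 6.87 and 5.11 in Sox2GBC, where the lowest array did not detect it. Both gates were drawn on GFP of the Sox2 line, so the difference of 3.50 ± 0.33 (2.94 ± 0.23 without that array) follows the gate and is given as a description. Sorts chosen without a Sox2 gate read 6.07, 6.28 and 6.13 in Neurog1-Ctrl and 7.14, 6.89 and 6.74 in OMP, within or above the range of Sox2GBC. Neither was called against Sox2GBC (-0.07 ± 0.33 for Neurog1-Ctrl, adjusted p = 0.912, and 0.69 ± 0.33 for OMP, adjusted p = 0.0891). Both values rest on single Sox2GBC arrays. OMP was called higher without Sox2GBC replicate 1 (0.93, adjusted p = 0.0408) and without replicate 2 (1.01, adjusted p = 0.0221), against 0.13 without replicate 3 (adjusted p = 0.677). For Neurog1-Ctrl these values were 0.17, 0.24 and -0.64, none called. The labels do not say whether the ∆Sox2-GFP allele lacks Sox2 sequence, so an effect of the allele on Sox2 in Sus and Sox2GBC cannot be told apart from cell type when they are set against other lines. From highest to lowest mean the order was Sus, OM, Neurog1-OBX, OMP, OMP-OBX, Sox2GBC and Neurog1-Ctrl. From Neurog1-OBX on, the arrays of neighbours in that order overlapped. In OMP against Neurog1-Ctrl, which used no Sox2 gate, Sox2 differed by 0.77 ± 0.33 without being called (adjusted p = 0.0735), though the arrays did not overlap. Over 17 alternatives this adjusted p ran from 0.00289 to 0.198, and 3 of them made the call. The second Sox2 probe was detected on all 3 Sus arrays (7.29, 8.76 and 6.75), on 1 OM array and on none of the other 15.

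Sox2GBC replicate 3 stood apart in depth, with a mean signal of 224 intensity units against 514 and 534 for the other Sox2GBC arrays. It was also the lowest of the 3 in Sox21 and in the mean of the sustentacular list (11.51, against 12.30 and 12.15). Without it Sox21 was 2.29 higher in Sus than in Sox2GBC, still called.

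The genes listed beside the group B factors moved with them in part. All 7 measured sustentacular markers were higher in Sus than in Sox2GBC, with a median difference of 2.17 against -0.12 over all genes. They included Hes1, a Notch target (3.68 ± 0.33), the detoxifying enzyme gene Cyp1a2 (2.46 ± 0.39) and the keratins Krt8 (2.32 ± 0.39) and Krt18 (2.17 ± 0.34). The list's mean per array ran from 13.95 to 14.16 in Sus, 11.51 to 12.30 in Sox2GBC, 9.62 to 10.44 in Neurog1-Ctrl and 10.45 to 11.45 in OMP. The part of sustentacular cells in the Sox21 levels of the other sorts was not tested. Of 10 listed partners and co-factors of Sox2 only Otx2, a homeodomain factor, passed the detection filter, and it was 2.38 ± 0.37 higher in Sus than in Sox2GBC (adjusted p = 2.14e-05). Of 9 measured proneural and antagonist genes 3 were higher (Hes1, Id1 and Id2, repressors of proneural activity) and 1 lower (Insm1, a factor of neuronal precursors, -2.14 ± 0.40). The share of all genes called in this comparison, in either direction, was 52%.

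Sox4 and Sox11, the group C genes, were both called lower in mature neurons than in the earlier sorts, and the size of the drop was not compared between them. Sox11 read 14.84, 14.51 and 14.84 in Sox2GBC and 14.48, 14.57 and 14.48 in Neurog1-Ctrl, and fell to 10.76, 11.82 and 10.70 in OMP. The first 2 sorts overlapped and differed by -0.22 ± 0.35 for Neurog1-Ctrl against Sox2GBC (adjusted p = 0.727), while every OMP array lay below both. The drop in OMP against Neurog1-Ctrl was -3.41 ± 0.35, a fold of 10.6 (adjusted p = 7.03e-07). Against Sox2GBC it was -3.63 ± 0.35, a fold of 12.4 (adjusted p = 1.8e-07). All 4 Sox11 probes were called lower in OMP than in Neurog1-Ctrl, the second by -3.93 ± 0.43. The 2 dimmest were detected on no OMP array and were at least 1.58-fold and 1.31-fold lower there, against the dimmest detected probe of each array. The last of them was detected on only 1 Neurog1-Ctrl array, so its bound rests on a mean of mostly undetected values. In OMP against Sox2GBC these 2 probes were not called (adjusted p = 0.101 and 0.0531). Within the noise class that holds OMP replicate 2 and the 3 Neurog1-Ctrl arrays the difference was -2.69.

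Sox4 read 8.31, 8.62 and 8.40 in OMP, against 9.06, 9.33 and 8.95 in Neurog1-Ctrl, with no overlap. The difference was -0.67 ± 0.25, a fold of 1.59, and was called (adjusted p = 0.0439), but 11 of 17 alternatives lost the call, with adjusted p up to 0.151. Against Sox2GBC (9.52, 8.81 and 9.74) the difference in OMP was -0.91 ± 0.25 (adjusted p = 0.00587), a call that was lost when arrays were scaled by their medians alone (-0.52, adjusted p = 0.236). The second Sox4 probe was detected on 9 of 21 arrays and on none of OMP, and was called in no comparison.

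In OMP against Neurog1-Ctrl 3 of the 5 Sox genes were called, 1 higher and 2 lower, where 36% of all genes tested were called. Of 10 measured genes reported as activated by Sox4 and Sox11 in neural or other cells, 9 were lower in OMP and 0 higher, with a median of -2.17 against 0.02 over all genes. Stmn1, a microtubule regulator, was -3.69 ± 0.49 and Marcksl1, an actin-linked membrane protein, -3.28 ± 0.27. Tead2, a transcription factor reported as a Sox11 target, was -3.10 ± 0.46, and Nrxn3, a synaptic adhesion gene, was the member not called (-0.08 ± 0.26). The 8 markers of precursors and immature neurons were all lower too, and their mean per array ran from 8.20 to 8.86 in OMP against 10.88 to 11.20 in Neurog1-Ctrl. Among them Neurog1 passed the filter only through the Neurog1-GFP sorts, so its fall follows the gate. Tubb3, Dcx and Stmn2 stand in both lists, so the 2 counts are not separate. Of the 5 Sox genes only Sox11 was called under all 17 alternatives in this comparison.

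In the Sus sort both group C genes stood above OMP. Sox4 read 10.36, 9.96 and 10.96 in Sus, above every array of Sox2GBC, Neurog1-Ctrl and OMP. It was 1.07 ± 0.25 higher than in Sox2GBC (adjusted p = 0.00148), 1.31 ± 0.25 higher than in Neurog1-Ctrl (adjusted p = 0.000169) and 1.98 ± 0.25 higher than in OMP (adjusted p = 1.3e-06). The second Sox4 probe gave 0.18 ± 0.39 between Sus and Sox2GBC and was not called. Within the 2 noise classes that hold both sorts the brightest Sox4 probe gave 0.22 and 1.79, with 1 Sus array in each. Sox11 read 11.98, 13.17 and 13.79 in Sus. The difference was -1.75 ± 0.35 against Sox2GBC (adjusted p = 0.000298), -1.53 ± 0.35 against Neurog1-Ctrl (adjusted p = 0.000825) and 1.88 ± 0.35 against OMP (adjusted p = 9.9e-05). These 3 Sus arrays spread more in Sox11 (SD 0.92) than the arrays of any other group.

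The Sus array lowest in Sox11 was also the lowest in the globose basal list. That list's mean was 9.02 on it and 10.80 and 11.08 on the other Sus arrays. The mean of the precursor and immature neuron list was 8.16 and 8.25 on the Sus arrays lower in Sox11 and 9.24 on the highest. Of the 6 globose basal and progenitor genes 4 were higher in Sus than in Sox2GBC, where 52% of all genes were called in either direction. They were Lgr5 (3.53 ± 0.37), the cell cycle genes Cdk1 (1.86 ± 0.50) and Top2a (1.79 ± 0.57), and the receptor gene Kit (1.52 ± 0.44). The part of these cells in the Sus levels of Sox4 and Sox11 was not tested.

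Sox9, the group E gene, was lower in Neurog1-Ctrl than in Sox2GBC. It read 7.60, 8.38 and 8.09 in Neurog1-Ctrl, against 10.88, 10.22 and 9.99 in Sox2GBC, with no overlap. The difference of -2.34 ± 0.29 is a fold of 5.06 (adjusted p = 3.92e-05), and -2.52 within the noise class that holds both sorts. The second Sox9 probe was detected on the 3 Sox2GBC arrays and no Neurog1-Ctrl array and was at least 2.01-fold lower in Neurog1-Ctrl (adjusted p = 0.000776). Sox9 was the 1 gene of the 5 called in this comparison, in which 17% of all genes tested were called, 9.03% as lower. The call was kept under all 17 alternatives, at -2.52 to -1.91.

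OMP read 8.46, 9.10 and 8.82 for Sox9, all below Sox2GBC (-1.57 ± 0.29, adjusted p = 2e-04). Against Neurog1-Ctrl OMP was 0.77 ± 0.29 higher (adjusted p = 0.0438), a call that 10 of 17 alternatives lost, with adjusted p up to 0.199, and the second probe did not give it (0.35 ± 0.36, adjusted p = 0.482). Markers of some other cells were higher in OMP here too. They were 4 of 6 horizontal basal genes (median 1.51), 3 of 7 sustentacular genes (median 0.93) and 2 of 4 fibroblast genes (median 0.88). In each of these lists 0 were lower, and 36% of all genes were called in either direction. Of the 8 measured Bowman's gland and duct genes other than Sox9, 0 were called (median 0.84). Of the microvillar and brush cell genes 1 of 6 was higher. The glial, endothelial and immune lists had 0 called of 2, 3 and 3. The means per array were 7.57 to 8.07 in OMP against 6.41 to 6.88 in Neurog1-Ctrl for the horizontal basal list, and 7.04 to 7.65 against 6.26 to 6.64 for the fibroblast list. The part of these cells in the Sox9 difference was not tested. In OMP against Sox2GBC 3 of the 5 genes were called, all lower, beside 46.9% of all genes called and 24.2% called lower. Sus read 9.68, 9.78 and 9.79, closely together, and lay 1.73 ± 0.29 above Neurog1-Ctrl (adjusted p = 3.74e-05) and 0.96 ± 0.29 above OMP (adjusted p = 0.00728, 0.138 with scaling by medians). Against Sox2GBC it differed by -0.61 ± 0.29 without being called (adjusted p = 0.0836), although the arrays did not overlap. Without Sox2GBC replicate 3 it was called (-0.80 ± 0.32, adjusted p = 0.0468).

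Markers of other mucosal cells moved with Sox9 between Neurog1-Ctrl and Sox2GBC. Of the 8 measured Bowman's gland and duct genes other than Sox9, 5 were lower in Neurog1-Ctrl and 0 higher, with means per array of 6.89 to 7.92 in Neurog1-Ctrl and 8.45 to 10.07 in Sox2GBC. Among them were Ascl3, a factor of gland and microvillar cells that stands in both lists (-3.73 ± 0.56), Ltf, lactoferrin (-3.08 ± 0.50), the water channel gene Aqp5 (-2.33 ± 0.29) and Sox10 (-1.96 ± 0.55). All 7 sustentacular genes, 5 of 6 microvillar and brush cell genes, 4 of 6 horizontal basal genes and both measured glial genes, Sox10 among them, were lower as well. Over all genes tested, 17% were called in this comparison, 9.03% as lower. The microvillar genes Chat, Cftr and Foxi1 and the gland gene Dmbt1 were detected on no Neurog1-Ctrl array. The part of these cells in the Sox9 difference was not tested. Of the 9 measured genes reported as Sox9 targets or partners, 0 were called, the largest difference being that of Nfia (-0.82 ± 0.29, adjusted p = 0.055).

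**Figure D2:**
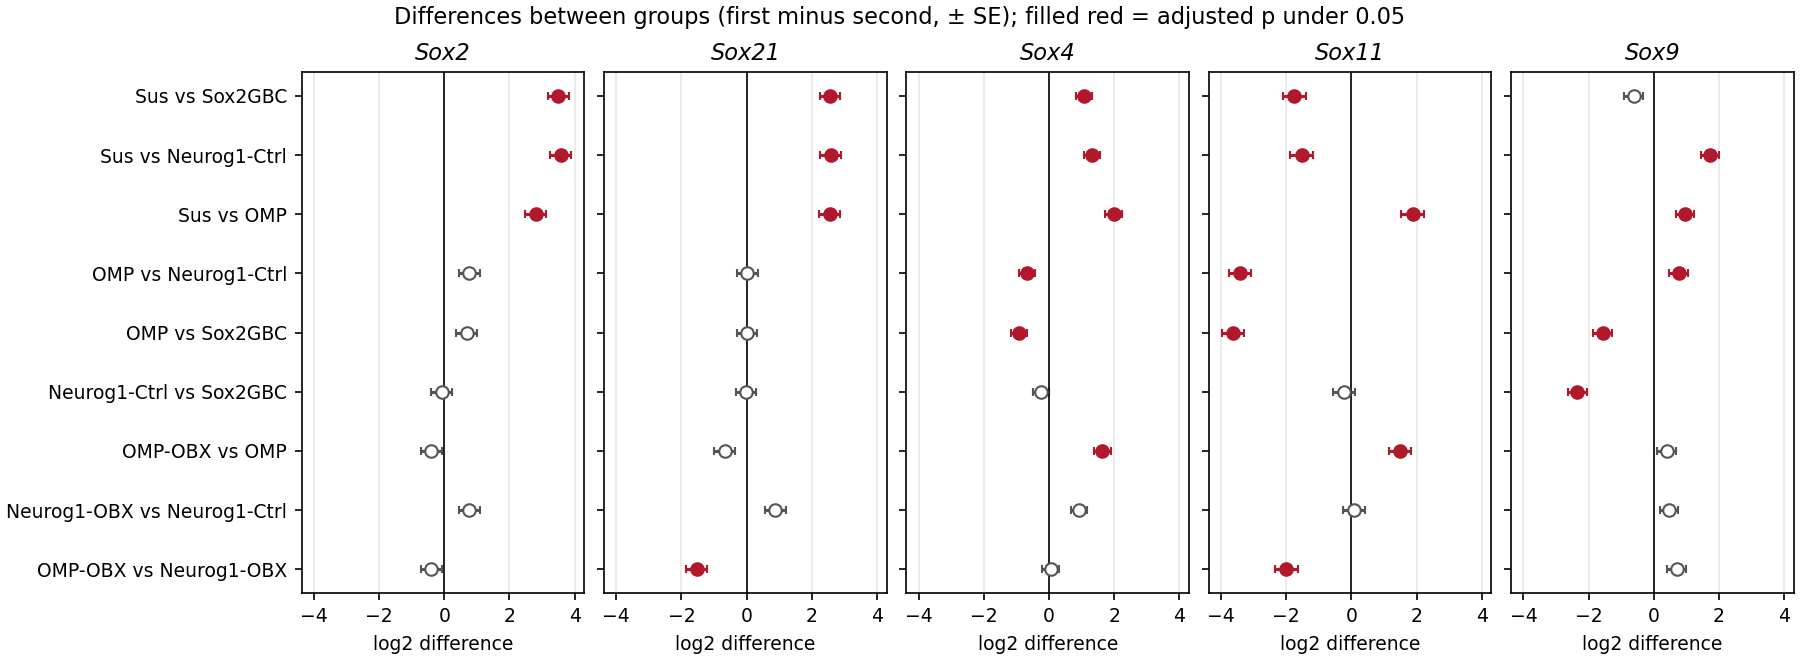
Log2 difference of the brightest probe between pairs of groups (horizontal axis, first group minus second, bars are ± SE) for 9 comparisons (vertical axis) and 5 genes; filled points were called. Sus was higher than OMP in all 5 genes, Sox2 by its gate. Sox9 was the only gene called in Neurog1-Ctrl against Sox2GBC, and Sox4 and Sox11 were the only genes called in OMP-OBX against OMP.

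Across the whole set, Sus against Sox2GBC called 4 of 5 genes (3 higher, 1 lower, Sox2 following its gate), beside 52% of all genes. Sus against Neurog1-Ctrl called all 5 (4 higher, 1 lower) beside 59.4%, and Sus against OMP all 5, each higher, beside 59.9%. In both, the Sox2 call follows the gate of Sus for high GFP of the Sox2 line. The share of all genes called higher in Sus than in OMP was 29%.

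After bulbectomy, Sox4 and Sox11 rose in the OMP-GFP sort. Sox4 read 9.83, 10.11 and 10.30 in OMP-OBX, against 8.31, 8.62 and 8.40 in OMP. The groups did not overlap, and the rise was 1.64 ± 0.25, a fold of 3.12 (adjusted p = 0.000274). Sox11 read 12.71, 12.68 and 12.39 in OMP-OBX, against 10.76, 11.82 and 10.70 in OMP. It too did not overlap and rose by 1.50 ± 0.35, a fold of 2.82 (adjusted p = 0.00872). These were the 2 genes called of 5, beside 8.66% of all genes tested and 4.25% called higher. They were also the 2 whose arrays did not overlap, which held for 28.9% of all genes. Sox2 (-0.40 ± 0.33), Sox9 (0.40 ± 0.29) and Sox21 (-0.67 ± 0.32) were not called.

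The probes of these genes did not read alike. The second Sox11 probe read 12.23, 12.03 and 11.80 in OMP-OBX, against 8.62, 10.50 and 9.22 in OMP, a rise of 2.58 ± 0.43 (adjusted p = 0.000724). The 2 dimmest Sox11 probes gave -0.07 and 0.01 and were detected on no array of either group. The second Sox4 probe gave 0.50 ± 0.39 (adjusted p = 0.541) and was detected on 1 array, of OMP-OBX. The rise of Sox4 thus rests on 1 probe and that of Sox11 on 2. Without OMP replicate 1 Sox11 missed the call (1.33 ± 0.39, adjusted p = 0.0525), and this was the only 1 of 17 alternatives to lose it, while Sox4 kept its call in all 17.

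**Figure D3:**
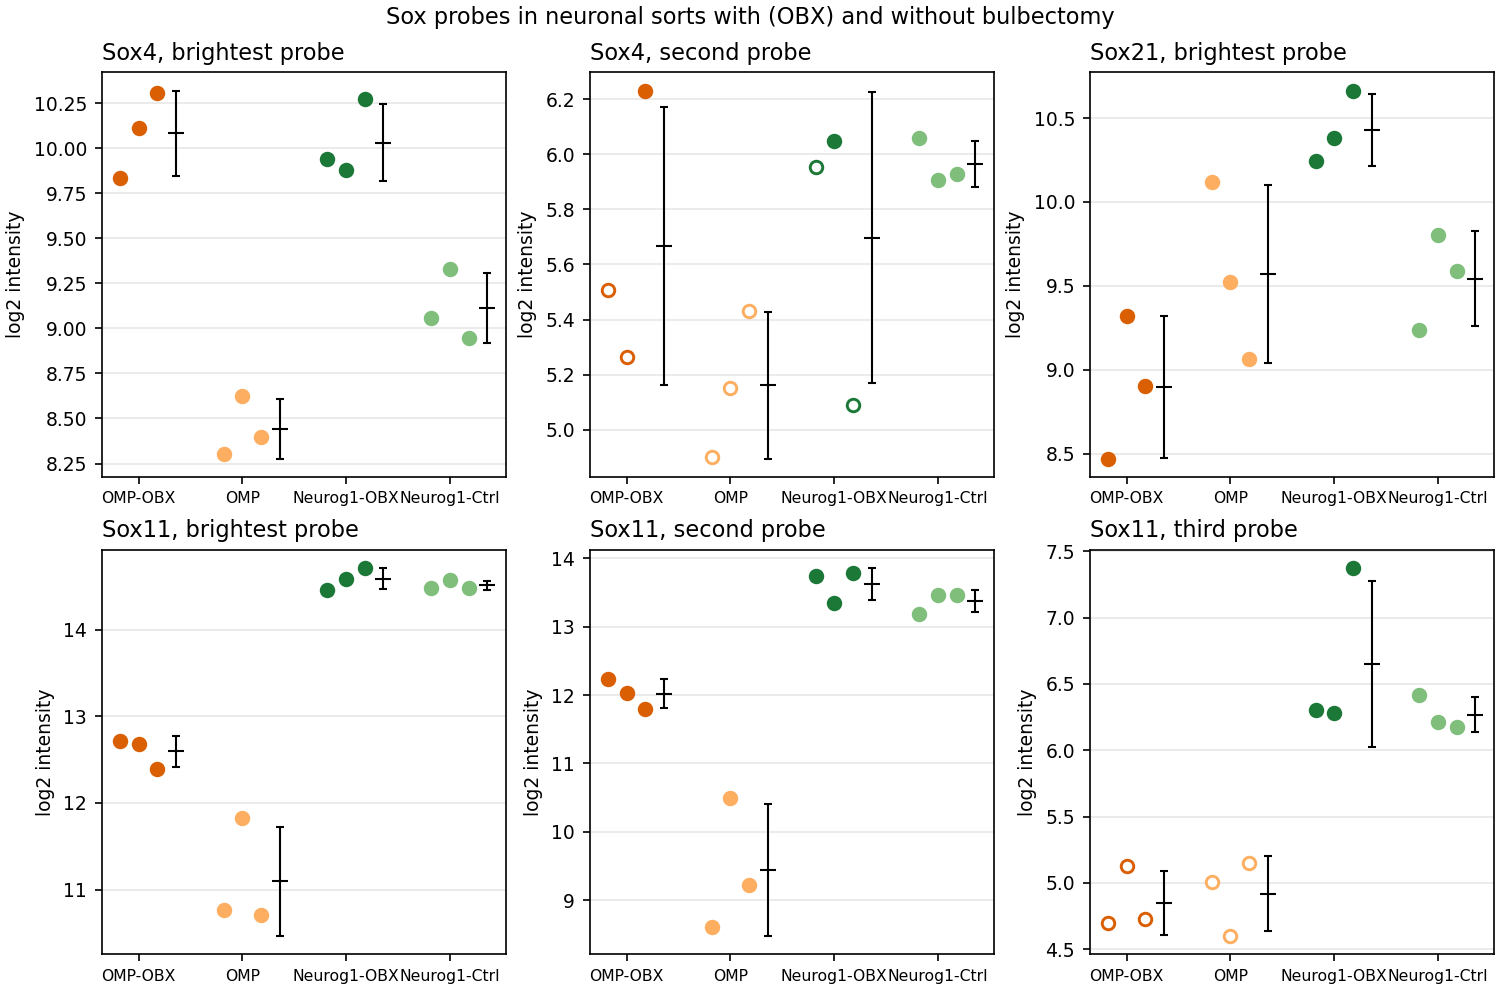
Log2 intensity (vertical axis) of 6 probes of Sox4, Sox21 and Sox11 in the neuronal sorts with and without bulbectomy (horizontal axis); points are arrays, open where not detected, and bars are the mean and SD of 3 arrays. The brightest Sox4 probe and the 2 brightest Sox11 probes stood higher in OMP-OBX than in OMP without overlap, while the third Sox11 probe was detected in neither group.

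Of the 10 genes reported as activated by Sox4 and Sox11, 4 rose in OMP-OBX against OMP and 0 fell, with a median of 0.81 against -0.01 over all genes. Of all genes tested 8.66% were called in this comparison, 4.25% as higher. They were Stmn1 (3.38 ± 0.49), Marcksl1 (2.13 ± 0.27), Stmn2, a growth-associated microtubule gene (1.42 ± 0.38), and Map2, of dendritic microtubules (1.01 ± 0.22). Tead2 (0.61 ± 0.46) and Hes6 (0.10 ± 0.34), which had been lower in OMP than in Neurog1-Ctrl, were not called. Of the 8 precursor and immature neuron markers 4 rose and 0 fell, with means per array of 9.72 to 10.02 in OMP-OBX and 8.20 to 8.86 in OMP. The growth cone protein gene Gap43 rose by 3.38 ± 0.40 and Insm1 by 2.09 ± 0.40, while Neurog1 stayed undetected on the 6 arrays. Of the 7 mature neuron markers only 1 was called, as lower, a count too small to set apart from the 8.66% of all genes. Their means were 13.50 to 13.72 in OMP-OBX and 14.05 to 14.21 in OMP. The part of young neurons among the sorted cells in the rise of Sox4 and Sox11 was not tested. The 3 OMP-OBX arrays lie in the noise class that also holds OMP replicate 3, and against that array alone Sox4 differed by 1.69 and Sox11 by 1.89.

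In the Neurog1-GFP sort 0 of the 5 Sox genes were called after bulbectomy by limma, beside 0.379% of all genes (45 genes). At an unadjusted p under 0.05 there were 3, beside 10.3% of all genes. Sox4 read 9.94, 9.88 and 10.27 in Neurog1-OBX, against 9.06, 9.33 and 8.95 in Neurog1-Ctrl. Sox21 read 10.24, 10.38 and 10.66 in Neurog1-OBX, against 9.24, 9.80 and 9.59 in Neurog1-Ctrl. Sox2 read 6.51, 7.26 and 7.01 in Neurog1-OBX, against 6.07, 6.28 and 6.13 in Neurog1-Ctrl. In these 3 genes every Neurog1-OBX array lay above every Neurog1-Ctrl array, and 23% of all genes had no overlap between these groups in one direction or the other. The sustentacular list did not overlap either, with means per array of 10.95, 10.52 and 10.75 in Neurog1-OBX, against 9.62, 10.44 and 10.36 in Neurog1-Ctrl (0 of 7 genes called, median difference 0.69). Otx2 differed by 0.78 ± 0.37 (adjusted p = 0.475). The part of sustentacular cells in these differences was not tested. The differences were 0.92 ± 0.25 for Sox4 (adjusted p = 0.145), 0.89 ± 0.32 for Sox21 (adjusted p = 0.294) and 0.77 ± 0.33 for Sox2 (adjusted p = 0.413). With array weights all 3 were called, with adjusted p of 0.0161, 0.0266 and 0.0471, and with only these 2 groups in the fit Sox4 was (adjusted p = 0.0482). Sox11 differed by 0.08 ± 0.35 and Sox9 by 0.47 ± 0.29.

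Whether bulbectomy acted differently in the 2 sorts was tested by the interaction, the difference in OMP-GFP cells minus that in Neurog1-GFP cells. It called 0 of the 5 genes by limma, beside 1.97% of all genes, and 3 at an unadjusted p under 0.05, beside 15.7%. Sox21 stood at -1.56 ± 0.45 (adjusted p = 0.0819), Sox11 at 1.42 ± 0.49 (adjusted p = 0.152) and Sox2 at -1.16 ± 0.46 (adjusted p = 0.217). The 7 sustentacular genes had a median interaction of -1.10 with 0 called, and Otx2 stood at -1.38 ± 0.52 (adjusted p = 0.189). Their part in the interactions of Sox21 and Sox2 was not tested. For Sox21 the second probe, detected on no OMP-OBX array and on only 1 Neurog1-Ctrl array, was called (-1.64 ± 0.38, adjusted p = 0.0373). Of 23 alternatives 3 called the gene, with adjusted p of 0.0187, 0.0378 and 0.0447. For Sox4 the interaction was 0.72 ± 0.36 (adjusted p = 0.333), so its rise was not shown to differ between the sorts.

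On the lesioned side, OMP-OBX against Neurog1-OBX called 2 of 5 genes, both lower, beside 25% of all genes called and 12.3% called lower. Sox11 was -1.99 ± 0.35 (adjusted p = 0.000332), a drop of 3.98-fold. Sox21 was -1.53 ± 0.32 (adjusted p = 0.00152), with 8.47, 9.32 and 8.91 in OMP-OBX all below the Neurog1-OBX arrays. With the bulb in place this step was 0.03 ± 0.32 and not called. The difference between the 2 steps is the interaction given above (-1.56 ± 0.45), which was not called (adjusted p = 0.0819), so the steps were not shown to differ. Sox4 differed by 0.05 ± 0.25 (adjusted p = 0.913), and its OMP-OBX and Neurog1-OBX arrays overlapped.

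Against whole mucosa each sort had a profile of its own. Sox2GBC called 3 of 5 genes beside 32.8% of all genes, Sox11 higher (1.57 ± 0.35) and Sox2 (-2.17 ± 0.33, by its gate) and Sox21 (-1.48 ± 0.32) lower. Neurog1-Ctrl called 4 beside 36.7%, Sox11 higher (1.35 ± 0.35) and Sox2 (-2.24 ± 0.33), Sox9 (-2.63 ± 0.29) and Sox21 (-1.50 ± 0.32) lower. OMP was lower in all 5, beside 20.5% of all genes called and 13% called lower, from -0.95 ± 0.25 for Sox4 to -2.06 ± 0.35 for Sox11. Sus called 4 beside 48.5%, with Sox2 (1.33 ± 0.33, by its gate), Sox21 (1.07 ± 0.32) and Sox4 (1.04 ± 0.25) higher and Sox9 lower (-0.91 ± 0.29). The Sox21 call in Sus against OM was lost without OM replicate 2 (0.86, adjusted p = 0.056), and the Sox9 call without OM replicate 1 (-0.64, adjusted p = 0.078). OM itself read 8.58, 8.45 and 8.17 for Sox2, 9.44, 9.53 and 9.19 for Sox4 and 11.19, 10.09 and 10.69 for Sox9. It read 13.60, 12.89 and 12.98 for Sox11 and 11.68, 10.62 and 10.83 for Sox21.

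Against the reference RNA, OM called 4 of 5 genes on all 24 arrays, beside 66.2% of 12495 genes. The 3 mREF arrays repeat 1 RNA, so these p-values hold no biological spread on that side. Sox11 read 13.61, 12.87 and 12.95 in OM, against 8.93, 8.87 and 8.87 in mREF, a fold of 19.1 (4.25 ± 0.33, adjusted p = 2.22e-10). Sox21 read 11.64, 10.59 and 10.79 in OM, against 6.74, 6.86 and 6.75 in mREF (4.22 ± 0.30, adjusted p = 4.69e-11). Sox2 read 8.55, 8.42 and 8.14 in OM and was detected on no mREF array (5.26, 4.60 and 5.40), so it was at least 6.04-fold higher, taking for each mREF array the higher of its own value and its dimmest detected probe. These 3 genes stood far above the reference. Sox4 differed by -0.72 ± 0.24 in OM against mREF (adjusted p = 0.0116), a call lost without OM replicate 3 (adjusted p = 0.0514) and with scaling by medians (adjusted p = 0.335). Sox9 at 11.15, 10.05 and 10.65 in OM and 11.11, 11.01 and 11.24 in mREF was not called.

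**Figure D4:**
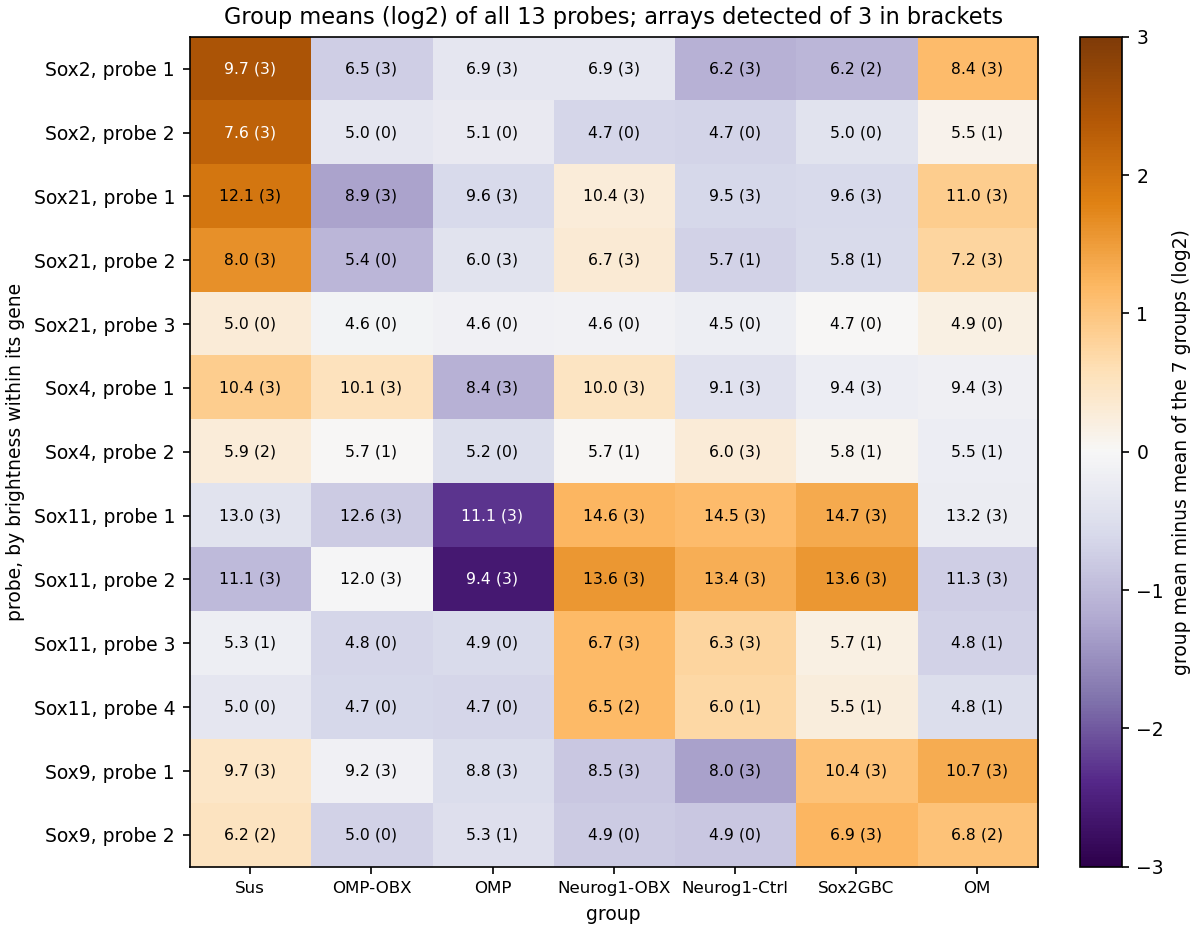
Group means in log2 intensity of all 13 probes (vertical axis, numbered by brightness within a gene) in the 7 mucosal groups (horizontal axis), with the number of arrays of 3 that detected the probe in brackets; colour is the group mean minus the mean of the 7 groups. Outside Sox4, dim probes were mostly undetected in the groups where the brightest probe of their gene was low. The second Sox4 probe was detected on 3 Neurog1-Ctrl arrays but on 1 array of each OBX group, where the brightest Sox4 probe read higher. The third Sox21 probe was detected nowhere.

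Of the 13 probes 12 passed the filter, detection on at least 3 arrays. Over the 21 mucosal arrays the second probe correlated with the brightest one at r = 0.97 for Sox21, 0.94 for Sox11, 0.87 for Sox9 and 0.82 for Sox2, but at 0.20 for Sox4. These r are descriptions, since probes of a gene share the arrays and dim probes sit near background. The third Sox21 probe was the one that did not pass and read between 4.45 and 5.60.

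Among the other Sox genes 15 were on the array and 7 passed the filter. Sox15 was detected on the 3 Sus arrays alone of the 21 (6.22 ± 0.63, SD, n = 3) and so passed the filter only through them, and its level is given without a test. Sox13, a group D gene, averaged 9.15 ± 0.55 in Sus, 6.09 ± 0.46 in OMP-OBX, 7.38 ± 0.13 in OMP and 8.90 ± 0.34 in Sox2GBC (SD, n = 3 each). It was the only other Sox gene called after bulbectomy in the OMP-GFP sort, with -1.28 ± 0.27 (adjusted p = 0.00453), opposite in sign to Sox4 and Sox11. Sox10, a group E gene of glands and glia, averaged 5.91 ± 0.79 in Sus, 6.16 ± 0.25 in Neurog1-Ctrl and 8.12 ± 0.35 in Sox2GBC, and was lower in Sus than in Sox2GBC (-2.21 ± 0.55, adjusted p = 0.00244). Sox12, the third gene of group C, was lower in Sus than in OMP (-1.29 ± 0.22, adjusted p = 3.83e-05), where Sox4 and Sox11 were higher.

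Likeness of pattern was measured as Pearson's r over the 21 mucosal arrays among 11491 genes outside the Sox family, which share arrays and groups with each Sox gene. Sox11 was most like Mex3a, an RNA-binding protein gene (r = 0.99), Nras, a small GTPase gene (0.98), Mbd2, of a methylated DNA binder (0.98), and Msantd3 (0.97). Mex3a averaged 7.88 in OMP, 11.81 in Neurog1-Ctrl and 12.08 in Sox2GBC. Sox21 was most like Otx2 (0.96), Flrt3, of an adhesion protein (0.94), Pqlc3 (0.93) and Il13ra1, a cytokine receptor chain gene (0.93), each highest in Sus. Sox2 was most like Ccn1, of a matrix-associated signalling protein (0.95), Zfp809 (0.94), Usp2, a deubiquitinase gene (0.93), and Faap20 (0.93). Sox9 was most like Cldn10, of a tight junction protein (0.93), Gata6, a zinc finger factor (0.91), Kcnk5, a potassium channel gene (0.91), and Plekha2 (0.90). Sox4 had no like of that closeness, with Cox19 (0.79), Mapk1ip1l (0.76), Sqle, of sterol synthesis (0.75), and Homer1, a synaptic scaffold gene (0.75).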

How the data were processed

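Per the file headers, the deposited table that is not normalized gives, per array and probe, an intensity with its detection p-value. The submitters' processing notes name GenomeStudio, without a version. Values below 0 in the deposited intensity columns show that background had been subtracted. The series matrix holds the authors' own normalized intensity values, with array medians of 120.65 to 121.02 on a linear scale and a method the sources used here do not give, and served as an alternative. Symbols came from the platform annotation, updated through gene identifiers to RefSeq, and 34885 probes had 1 symbol, 18 several and 10378 none.

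From these values background was corrected with normexp from the detection p-values in limma 3.58.1 (R 4.3.3), 16 units were added as an offset, and log2 values were taken after quantile normalization between arrays. The filter kept probes that 3 or more arrays detected (detection p under 0.01). The brightest kept probe stood for its gene. The 7 mucosal groups were fitted together (21 arrays, 11870 genes, 14 residual degrees of freedom). OM against mREF was fitted on all 24 arrays. A fit on all 18528 probes gave the values of single probes. P-values were adjusted over all genes or probes tested.

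The members and lists were chosen with earlier results of these data known. Lists leave out the 5 members. Named genes are the members, up to 4 called genes of largest change and 2 others per list, up to 4 other Sox genes called in a comparison and the 4 genes most like each member. Tested on simulated data made for OMP against Neurog1-Ctrl with 11870 genes, the model recovered 2%, 50%, 98% and 100% of genes changed by 0.5, 1, 2 and 3 log2 units, 50 genes at each size. Replicate numbers were checked as pairs by correlating deviations from group means, and 1 of 21 pairs of groups, OM with OMP, had every correlation over 0.1 (0.53, 0.11 and 0.25), without a label that says what the number marks. Promoters came from RefSeq, GRCm38.p6. Figures used Python 3.11.15 and matplotlib 3.10.9. The closing section gives the effect of the alternatives.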

Additional observations from a re-analysis of the deposited data

How the results depend on the processing

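Each of the 75 gene results was refitted under 17 alternatives (23 for the interaction): no background correction, cyclic loess, scaling by medians, the series matrix of the authors, a filter left out or made stricter, the mean of all probes, the compared groups alone, array weights, blocks on replicate number and noise class, and leaving out each array. Of 1305 such values 1255 kept their side of the threshold, 31 lost a call, 19 gained one, and 0 called values changed sign, while 34 uncalled values did. Of 45 called results 35 were called under every alternative. The number of Sox genes called in OMP against Neurog1-Ctrl fell to 1 with scaling by medians, the authors' values, no filter and the noise class block, and to 1 to 2 on leaving out arrays, against 3, and was 4 with only the compared groups, where Sox2 was gained (adjusted p = 0.011). In Neurog1-OBX against Neurog1-Ctrl it was 3 with array weights and 1 with only the compared groups, against 0. In OMP-OBX against OMP leaving out arrays gave 1 to 2, against 2. The interaction gave 1 with cyclic loess (Sox2, adjusted p = 0.046), the mean of all probes and array weights, and 0 to 1 on leaving out arrays (1 without OMP replicate 3), against 0. Sus against OM gave 2 with scaling by medians, against 4, where Sox4 and Sox21 were lost (adjusted p = 0.0745 and 0.0893). Sox4 in OMP against OM was lost there too (-0.89, adjusted p = 0.0835).

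With the replicate block Sox9 in OMP against Neurog1-Ctrl missed the call (adjusted p = 0.0566), leaving 2 Sox genes called, and the block changed no other call. Scaling by medians moved the median of all genes by over 0.1 in 9 of 15 comparisons, most in Neurog1-Ctrl against Sox2GBC (0.38 against -0.00123). Cyclic loess did so in 3, to 0.14 in OMP against Neurog1-Ctrl (0.02 before), 0.02 in Sus against Neurog1-Ctrl (-0.15) and -0.09 in Neurog1-Ctrl against OM (0.06). With scaling by medians the share of calls that were higher was 77% in Neurog1-Ctrl against Sox2GBC (46.9% before), 70.6% in OMP against Sox2GBC (48.4%), 33.7% in Sus against Neurog1-Ctrl (43.8%), 34.7% in Neurog1-OBX against Neurog1-Ctrl (48.9%), 22.9% in OMP-OBX against OMP (49%), 44.7% in the interaction (64.5%), 22.4%, 24.4% and 34.4% in Sox2GBC, OMP and Sus against OM (51.4%, 36.7% and 48%). With cyclic loess it was 35.4% in Neurog1-Ctrl against Sox2GBC, 60.4% in OMP against Neurog1-Ctrl (49.7%), 48.2% in the interaction and 35.5% in Neurog1-Ctrl against OM (50.2%). The cause of these changes was not tested. In the simulated data, where far fewer genes changed than were called in the real comparison, changes of 0.5 log2 units were mostly missed. The offset lowers the change read from probes near background.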
